A study of Mus musculus with 15 samples.

Results

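The cytosolic ribosomal protein genes encode the protein part of the ribosome outside mitochondria. Members were taken by symbol (Rpl or Rps followed by a number, with the suffixes a, x, l, al, a1 or l1, and Rplp0, Rplp1, Rplp2 and Rpsa) if at least 10 reads were counted in at least 3 libraries. Of 45777 gene symbols in the files, 88 matched the name and 85 had the reads, 51 of the large subunit and 34 of the small subunit. Symbols ending in -ps, which name pseudogenes, were left out. The 3 symbols under the read minimum were Rpl10l with 0 reads, Rpl32l with at most 10 reads and Rpl39l with at most 12 reads. Just inside it lay Rps12l1, with 12 to 57 reads per library, and Rpl3l, with 16 to 47. The GENCODE M21 annotation lists 82 of the 85 members as coding and Rps4l, Rpl6l and Rps12l1 as pseudogenes, so the name of the set holds for 82 members.

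A ribosome joins a large and a small subunit, each a core of ribosomal RNA held by proteins that are needed in near-equal numbers. The messenger RNAs of these proteins typically begin with a C followed by an unbroken run of C and T, the terminal oligopyrimidine (TOP) sequence, through which mTOR signalling sets how strongly they are translated. They are short, abundant messages made in every brain cell, and unassembled subunit proteins such as Rpl5 and Rpl11 can bind Mdm2 and so stabilise p53.

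Messenger RNA was sequenced from mouse brain in 15 libraries, 3 in each of 5 groups. Control mice had a normal diet for 5 weeks and no injected toxin. MPTP mice received MPTP, a toxin that damages dopamine neurons, at 20 mg/kg/day into the abdomen for 1 week. They then had a normal diet for 4 weeks. The other groups had the same MPTP treatment and then 4 weeks of levodopa, the dopamine precursor, at 2 mg/kg/day, or of an inhibitor of BTK (Bruton tyrosine kinase, a kinase of B cells and myeloid cells) at 1 µg/kg/day (low dose) or 2 µg/kg/day (high dose). The sample labels name these doses 25 and 50 pM instead, and name no inhibitor. Every group had 7 days of stabilization. The labelled time is 6 weeks for every group, and the tissue is brain with no region. The labels name no strain, sex or age. The protocol assigns 8 mice to a group and does not say that each library is 1 mouse, so the p-values rest on the variation among the sequenced samples alone, part of which may be technical.

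Some library properties ran alongside the groups. Total reads ran from 58149722 to 61998459 with the inhibitor and from 63314658 to 68257095 without it, with no overlap, and the 6 deposited inhibitor tables carry 24 empty columns against 51 in the other 9. Any shared handling of the inhibitor libraries and the inhibitor itself cannot be told apart. Regional tissue also differed. The 12 cerebellar markers summed to 8450 CPM (read counts relative to the library total) in control 2 and 6980 in levodopa 2. In the other 13 libraries they summed to 265 to 600 CPM, and Gabra6 was at 0 in at least 1 of these. The marker sums are not scaled further. CPM of single genes below are also scaled by the TMM method to make libraries comparable. The 12 cortical and hippocampal markers summed to 1240 to 3480 CPM with the inhibitor against 422 to 1530 without, where Fezf2 was at 0 in at least 1 library. The 10 thalamic and midbrain markers summed to 217 to 701 against 487 to 1340, the 10 striatal markers to 621 to 1860 against 252 to 3000, the 8 hypothalamic markers to 23.1 to 435 against 1.10 to 703, and the 10 dopamine neuron markers to 90.6 to 425 against 158 to 743. Of cell type markers, the 9 of choroid plexus summed to 306 to 1520 against 20.2 to 958, the 8 of astrocytes to 1930 to 2640 against 2430 to 5350 and the 10 of endothelium and pericytes to 187 to 285 against 251 to 542, while the 8 of oligodendrocytes, 10 of microglia, 6 of meninges and 5 of blood overlapped widely. The 7 B and T cell markers never summed to more than 0.967 CPM. The part of regional tissue in the results below was not tested beyond the fits named there. Fewer cells of a type and less RNA per cell cannot be told apart in whole-tissue libraries.

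Reads of the 85 members took up more of every inhibitor library than of any other library. The share was 1.44, 1.70 and 1.66% in the low-dose libraries and 1.53, 1.76 and 1.65% in the high-dose libraries. It was 1.17, 0.798 and 1.26% in controls, 1.27, 1.16 and 1.12% after MPTP alone, and 1.25, 0.788 and 1.23% after levodopa. The inhibitor libraries thus lay between 1.44 and 1.76% and the other 9 between 0.788 and 1.27%, and the lowest values were those of control 2 and levodopa 2, the libraries with high cerebellar markers. Without these, the remaining 7 ran from 1.12 to 1.27%. The subunits moved together: reads of the small subunit per 100 reads of the large subunit were 62.6 to 63.9 with the inhibitor and 58.4 to 64.0 without it. Reads of the 224 -ps pseudogene symbols were 0.850 to 1.15 per 100 member reads. No source used here says how reads shared by a member and a pseudogene copy were counted.

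**Figure D1:**
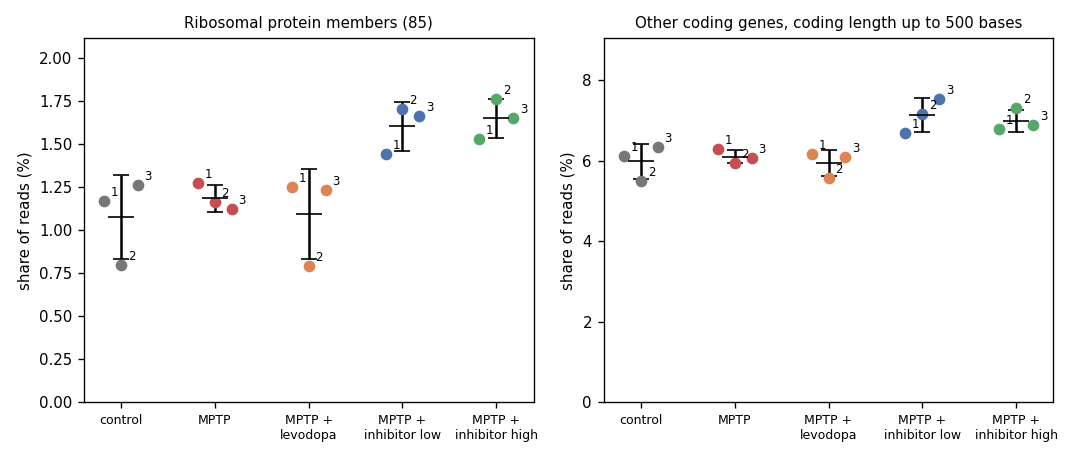
Share of all reads (%) in each library for the 85 members (left) and for other coding genes with a coding length of up to 500 bases (right). Points are libraries with their replicate number, bars the group mean ± SD of 3. The inhibitor libraries run from 1.44 to 1.76% on the left and 6.69 to 7.54% on the right, above every other library in both panels.

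Each comparison was fitted across all 21821 genes tested, with all 85 members among them, by edgeR's quasi-likelihood test with Benjamini-Hochberg adjustment at 0.05. Against MPTP alone, all 85 members had a higher fitted level in the low-dose group, with a median log2 fold change of 0.46 (1.38-fold), and 12 rose, 10 of the large and 2 of the small subunit. The medians of the subunits were alike, at 0.45 for the large and 0.47 for the small subunit. Over all genes tested the median was -0.005, and 4.78% of genes rose. With the high dose all 85 were again higher, with a median of 0.50 (1.42-fold) against -0.01 over all genes, and 5 rose, where 1.08% of all genes did. No member fell in either comparison. The libraries of the compared groups did not overlap, in the higher direction, for 67 members with the low dose and 79 with the high dose, against 20.9% and 20.4% of all genes. Both comparisons use the same MPTP libraries.

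The 12 members that rose with the low dose include Rpl12, Rpl13, Rpl22, Rpl30, Rpl36, Rpl41, Rplp0, Rplp1, Rplp2, Rps2 and Rps14, with the 12 at 1.35 to 1.95-fold. The 5 that rose with the high dose include Rpl7a, Rpl13, Rpl36 and Rplp0, with the 5 at 1.40 to 1.91-fold. Rpl13, Rpl36 and Rplp0 stood in both lists, 3 of the 12 and 3 of the 5. Both lists rest on the same MPTP libraries, and the like overlap over all genes was not counted. The counts of 12 and 5 varied with the fit. Without control 2 and levodopa 2 there were 54 calls with the low dose and 56 with the high dose, but calls over all genes, in either direction, also went from 8.53% to 23.7% and from 1.97% to 11.1%, while with 3 regional marker scores as covariates there were 0 in both and 0 over all genes. The cortical and hippocampal score was at least 0.689 in the inhibitor libraries and at most -0.085 in the others. The fit with these scores therefore cannot tell regional tissue from the inhibitor. DESeq2 made 31 and 26, and called 15.6% and 7.98% of all genes. Single libraries weighed on these counts: without MPTP 2 or MPTP 3 both counts became 0 (1.88% and 1.9% of all genes with the low dose, 0.0804% and 0.0937% with the high dose). Without low-dose 2 the low-dose count became 2 (5.78% of all genes), and without any 1 high-dose library the high-dose count became 0 (0.0979 to 0.41% of all genes).

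The same inhibitor libraries were also set against the controls. The low dose gave a median of 0.56 (1.48-fold) with 85 of 85 members higher and 13 rising, where 2.74% of all genes rose. The high dose gave a median of 0.62 (1.54-fold) with 84 of 85 higher, Rpl3l being the exception, and 2 rising, Rpl13 and Rpl36, where 0.215% of all genes did. Over all genes tested both medians were -0.01. Groups did not overlap in the higher direction for 65 and 78 members, against 14.0% and 14.4% of all genes. Among the 13 past the threshold, the 6 with the largest low-dose fold change against control were Rpl41 (2.16-fold), Rplp1 (2.00), Rpl36 (1.97), Rpl12 (1.87), Rplp2 (1.85) and Rps2 (1.83). Over all genes, 5.4% were called in either direction with the low dose. Without control 2 the 13 calls became 0 (1.11% of all genes), without control 3 2 (1.45%) and without low-dose 2 1 (2.71%). Without low-dose 3 there was 1 call (0.348%), of a member outside the 13. Without any 1 library of either group the 2 high-dose calls became 0, with 0.0667 to 0.29% of all genes called, against 0.376% with every library.

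No member was called for MPTP alone or for levodopa. For MPTP against control the median was 0.11 with 71 of 85 members higher, 0 were called (0.0% of all genes rose or fell), and 0 had an edgeR p under 0.05 before adjustment, where 6.62% of all genes did. The count from DESeq2 was 0 as well. Groups did not overlap for 2 members in the higher direction (Rps27l and Rps4l), where 6.83% of all genes did, and for 1 in the lower (Rpl3l), where 6.2% did. For levodopa against MPTP the median was -0.14 with 67 of 85 lower. Again 0 were called (0.0% of all genes), by edgeR and by DESeq2, and 1 had an edgeR p under 0.05 before adjustment, against 2.96% of all genes. The groups did not overlap in the higher direction for 0 members, against 4.93% of all genes, and 9 members did not overlap in the lower direction, against 4.65% of all genes. With levodopa the highest fold change was that of Rplp2 (0.26 ± 0.17, SE) and the lowest that of Rps12l1 (-0.88 ± 0.44, edgeR adjusted p = 0.954). The sign of both medians turned with 1 library: without control 2 the MPTP median was -0.05, and without levodopa 2 the levodopa median was 0.02. With the regional scores as covariates they were -0.10 and 0.07.

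The doses were compared directly as well. The high dose minus the low dose gave a median of 0.04, with 52 members higher and 33 lower. Of the 85, 0 were called (0.0% of all genes) by edgeR or DESeq2, and 0 had an edgeR p under 0.05 before adjustment, against 2.23% of all genes. In 2 members, Rpl23a and Rpl6l, all high-dose libraries lay above all low-dose libraries, against 5.23% of all genes. The log2 fold changes, high minus low, ran from -0.44 ± 0.32 (SE) for Rpl3l to 0.29 ± 0.21 for Rpl27, both with an adjusted p of 1.0 in edgeR's quasi-likelihood test, which does not show that the doses act alike.

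**Figure D2:**
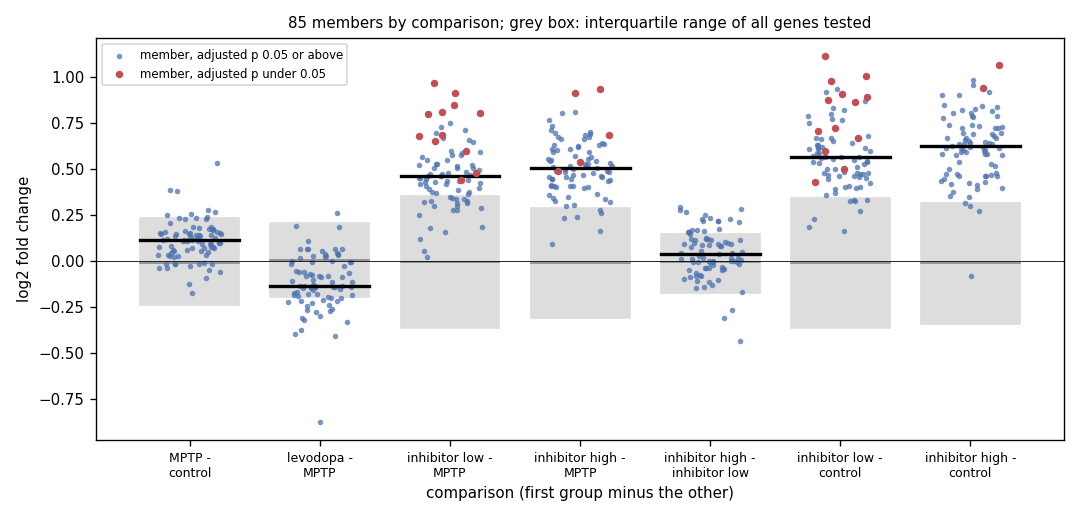
Log2 fold change of each of the 85 members in 7 comparisons, with members past the adjusted threshold of 0.05 in red, the member median as a black bar, and the interquartile range of all 21821 genes tested as a grey box. In the 4 comparisons of an inhibitor group with MPTP or control the member medians are 0.46 to 0.62, each above the upper edge of its grey box.

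Taking both doses together, 53 of 85 members (62.4%) had a higher CPM in all 6 inhibitor libraries than in any of the other 9, where 4.69% of all genes tested did, and 0 lay below all 9, where 3.87% did. The 32 that overlapped include Rps6, Rps9, Rpl9 and Rpl27. In alternatives chosen after seeing the data, leaving out control 2 and levodopa 2 gave 54 members, where 6.47% of all genes had that order, and leaving out low-dose 3 gave 62, where 5.33% did. In the other direction, 72 of 85 members (84.7%) were lower in control 2 and levodopa 2 than in all 13 other libraries, where 20.3% of all genes were. The 13 members outside that pattern include Rpl18, Rpl22, Rpl28, Rpl29, Rpl3l, Rpl7a, Rpl7l1, Rplp0, Rplp2, Rps27l, Rps4l and Rps9.

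**Figure D3:**
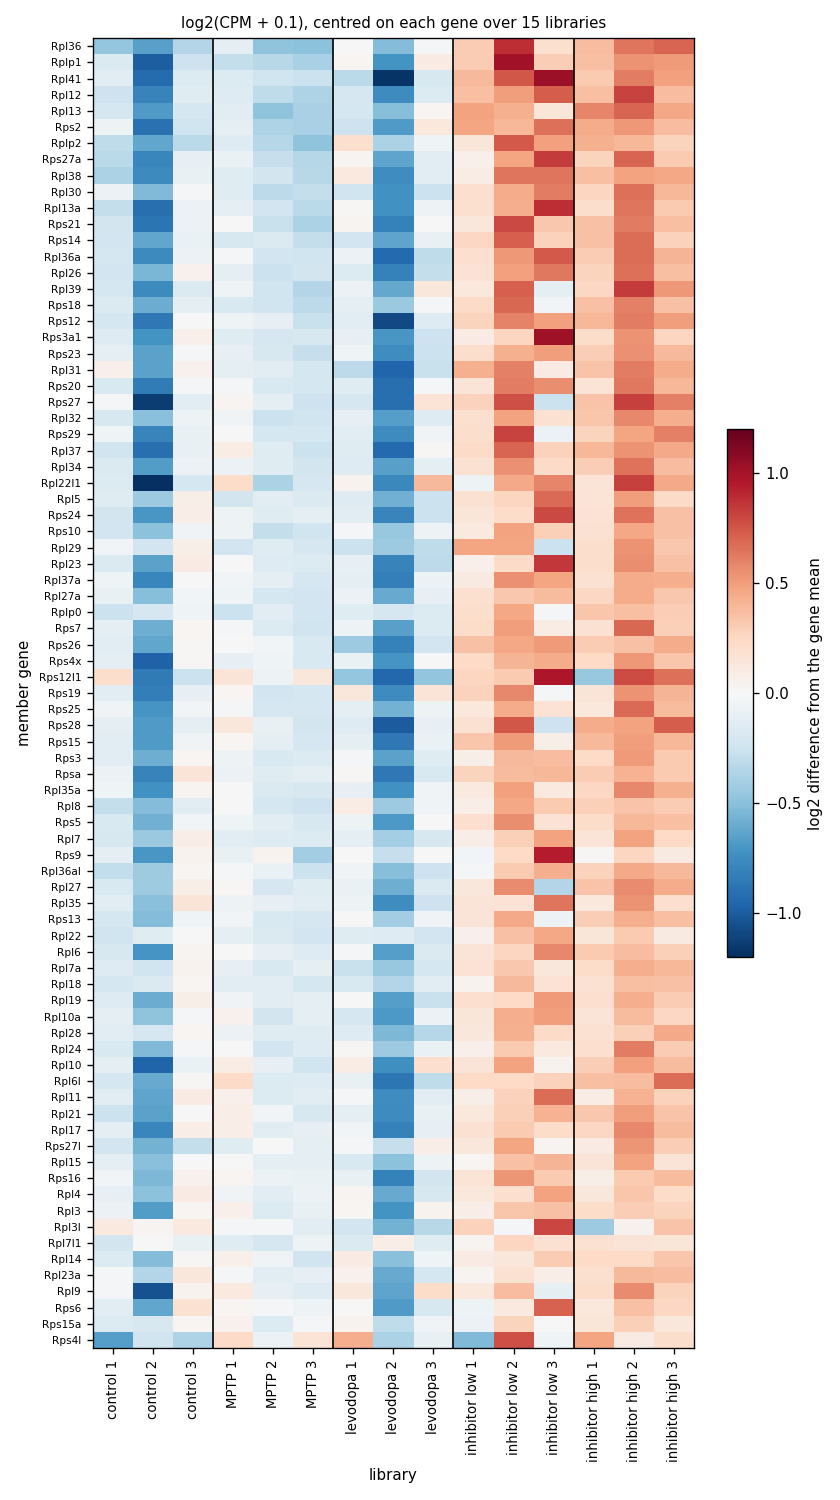
Heat map of log2(CPM + 0.1) of the members reported by name (rows) in 15 libraries (columns), centred on each gene's mean over all libraries and ordered by the summed fold change of both inhibitor groups against MPTP. The 6 inhibitor columns are mostly red, control 2 and levodopa 2 are mostly blue, and Rps4l at the bottom follows neither pattern.

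Since the letters at the transcription start define a TOP message, the start is shown for the members described below that rose in at least 1 comparison and had an entry, from the RefSeq promoter table of GRCm38.p6. These are Rplp2, Rpl12, Rps2 and Rpl7a, in which a C with at least 4 following C or T begins within 5 bases of the annotated start, and Rplp0, Rpl13, Rpl22 and Rpl41, in which none does. Each line gives 30 bases before and 20 bases from the annotated start, on the gene's own strand, with that C and the C and T that follow it in capitals. The unbroken run can begin before the capitals, as it does in Rpl7a. Rpl36 and Rplp1 had no match there.
Rplp2, chr7:141447621-141447670, plus strand: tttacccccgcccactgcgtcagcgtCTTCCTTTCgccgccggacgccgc
Rpl12, chr2:32961682-32961731, plus strand: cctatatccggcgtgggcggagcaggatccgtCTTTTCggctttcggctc
Rps2, chr17:24720033-24720082, plus strand: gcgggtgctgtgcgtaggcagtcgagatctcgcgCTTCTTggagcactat
Rpl7a, chr2:26910777-26910826, plus strand: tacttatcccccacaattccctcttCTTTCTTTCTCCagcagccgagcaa
Rplp0, chr5:115559437-115559486, plus strand: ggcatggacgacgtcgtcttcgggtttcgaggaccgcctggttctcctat
Rpl13, chr8:123102320-123102369, plus strand: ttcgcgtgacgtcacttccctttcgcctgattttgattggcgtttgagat
Rpl22, chr4:152325696-152325745, plus strand: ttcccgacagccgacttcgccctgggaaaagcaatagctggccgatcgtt
Rpl41, chr10:128549149-128549198, minus strand: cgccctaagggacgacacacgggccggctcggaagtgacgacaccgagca

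Of the 85 members, 62 had an entry in the table and 23 did not. A pyrimidine run placed in this way was found in 28 of the 62 (45.2%), against 18.4% of all 27025 promoter windows and 19.8% of those of other coding genes tested. Within the whole 300-base window (250 before and 50 after the start, both strands searched), CCGGAAG, the core bound by ETS factors, stood in 24 of the 62 (38.7%) and in 9.16% of all windows, but in 15.6% of the 12422 windows of other coding genes tested. AAGATGG, the core bound by YY1, stood in 14.5% of the members, 6.49% of all windows and 6.62% of those of other coding genes tested. TATAAA stood in 9.68%, which is below the 14.2% of all windows and above the 7.91% of other coding genes tested. Each is a match of letters and not a site. The annotated starts are not measured here, and 43 of the 62 lie over 10 bases from the outermost start of the gene in GENCODE M21, so the absence of a run says only that these letters are not in this window.

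The P stalk of the large subunit, made of Rplp0 and pairs of Rplp1 and Rplp2, recruits the translation factors. Rplp0, the scaffold of the stalk, was at 136, 141 and 156 CPM in controls, 135, 148 and 138 after MPTP, 146, 141 and 144 after levodopa, 187, 223 and 159 with the low dose and 204, 208 and 199 with the high dose. All inhibitor libraries lay above all others, and the high-dose libraries were close together. Against MPTP it rose by 0.44 ± 0.11 (log2, SE) with the low dose (adjusted p = 0.0351, edgeR quasi-likelihood test) and by 0.54 ± 0.11 with the high dose (adjusted p = 0.0369), and was called in neither comparison with control.

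Rplp1 was at 172, 97.5 and 163 CPM in controls, 159, 154 and 148 after MPTP, 198, 118 and 208 after levodopa, 239, 389 and 238 with the low dose and 248, 282 and 277 with the high dose. Every inhibitor library again lay above every other, with low-dose 2 far above its group. It rose with the low dose by 0.91 ± 0.26 (edgeR adjusted p = 0.0468), while the high dose gave 0.81 ± 0.26 (adjusted p = 0.116). Rplp2 was at 64.5, 51.8 and 63.6 CPM in controls, 71.6, 62.8 and 56.9 after MPTP, 91.4, 61.4 and 76.6 after levodopa, 87.8, 133 and 112 with the low dose and 107, 105 and 95.7 with the high dose. Levodopa 1 overlapped with the lowest inhibitor library. Rplp2 had the lowest adjusted p of all members with the low dose, 0.0171 for a log2 fold change of 0.80 ± 0.17 in edgeR, and 0.0601 for 0.68 ± 0.17 with the high dose. Rpl12, which lies at the base of the stalk, was at 132, 118 and 113 CPM after MPTP, 188, 207 and 242 with the low dose and 188, 256 and 189.8 with the high dose, with controls at 123, 84.2 and 133 and levodopa at 127, 87.0 and 131. It rose by 0.81 ± 0.20 with the low dose (edgeR adjusted p = 0.0294) and the high dose gave 0.80 ± 0.20 (adjusted p = 0.0598).

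Rpl36 and Rpl13, proteins of the large subunit, were the pair called in all 4 comparisons of an inhibitor group with MPTP or control. These comparisons share libraries, so the 4 calls are not independent, and the like share over all genes was not counted. Rpl36 was at 38.4, 33.7 and 41.6 CPM in controls, 48.9, 38.0 and 37.6 after MPTP, 53.0, 36.9 and 52.3 after levodopa, 65.3, 97.8 and 60.4 with the low dose and 68.6, 82.6 and 86.0 with the high dose. Its inhibitor libraries all exceeded the others, by 1.80-fold with the low dose (log2 0.845 ± 0.20, edgeR adjusted p = 0.0244) and 1.91-fold with the high dose (0.93 ± 0.20, adjusted p = 0.0388) against MPTP. Rpl13 was at 176, 127 and 175 CPM in controls, 186, 145 and 155 after MPTP, 175, 142 and 206 after levodopa, 283, 272 and 224 with the low dose and 304, 329 and 280.2 with the high dose. The doses overlapped, all inhibitor libraries lay above all others, and the fold against MPTP was 1.61 with the low dose and 1.88 with the high dose (edgeR adjusted p = 0.0291 and 0.0252).

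Rpl41 encodes the shortest ribosomal protein, with a coding length of 75 bases, and had the largest low-dose fold change of all members. It was at 149, 86.1 and 146 CPM in controls, 146, 138 and 137 after MPTP, 131, 72.4 and 143 after levodopa, 214, 274 and 333 with the low dose and 203, 251 and 229.7 with the high dose. The inhibitor libraries started at 203 CPM and the others ended at 149. The rise with the low dose was 1.95-fold (log2 0.97 ± 0.26, edgeR adjusted p = 0.0391) against MPTP and 2.16-fold against control (adjusted p = 0.0335), and the high dose gave 0.70 ± 0.26 (adjusted p = 0.167) against MPTP.

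Rps2, a small-subunit protein near the messenger RNA entry channel, was at 179, 100.4 and 158 CPM in controls, 172, 145 and 143 after MPTP, 157, 117 and 203 after levodopa, 259, 246 and 296 with the low dose and 255, 268 and 242 with the high dose. Inhibitor and other libraries did not overlap, and Rps2 rose with the low dose by 0.80 ± 0.21 (edgeR adjusted p = 0.0397). Rpl7a, a large-subunit protein, rose with the high dose by 0.49 ± 0.11 (edgeR adjusted p = 0.0407), from 174, 165 and 172 CPM after MPTP to 218, 252 and 245. It was at 209.6, 233 and 204 CPM with the low dose, at 154, 136 and 161 after levodopa and at 167, 158 and 192 in controls.

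**Figure D4:**
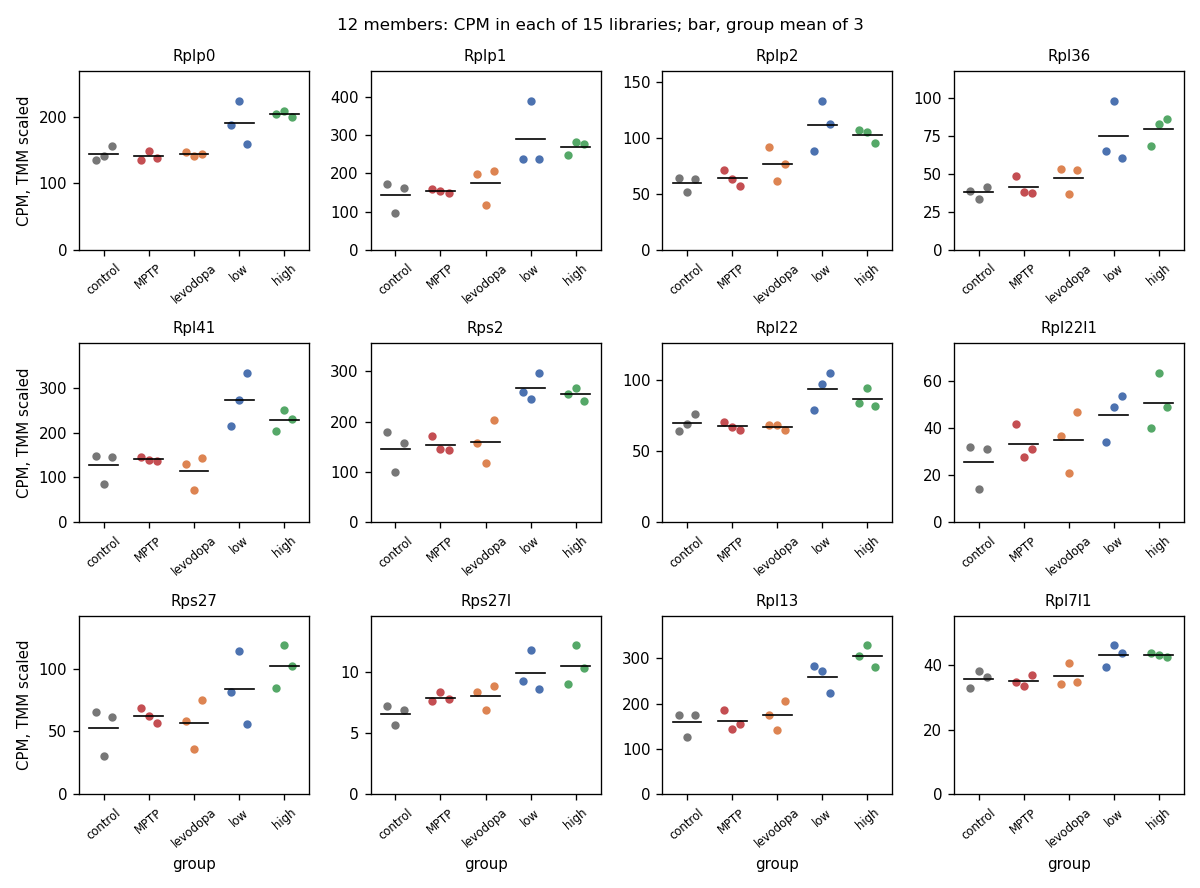
TMM-scaled CPM of 12 members in each of 15 libraries, by group, with the group mean of 3 as a bar and axes starting at 0. Rplp0, Rplp1, Rpl36, Rpl41, Rps2 and Rpl22 show all inhibitor libraries above all others, whereas those of Rps27 and Rpl22l1 overlap.

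Several members with known roles outside or beside the ribosome did not pass the adjusted threshold in any of the 7 comparisons. Rpl5 and Rpl11 form, with 5S RNA, the particle that can bind Mdm2. Rpl5 ran from 271 to 386 CPM with the inhibitor and 162 to 254 without it (low dose against MPTP 0.56 ± 0.17, adjusted p = 0.0562 in edgeR). Rpl11 ran from 177 to 269.6 CPM against 101 to 181, an overlap (0.43 ± 0.22, adjusted p = 0.238). Rpsa, which also serves as a laminin receptor at the cell surface, was at 476 to 527 CPM with the inhibitor and 217 to 440.2 without it (0.46 ± 0.23, edgeR adjusted p = 0.227). Rpl5 and Rpsa thus had no overlap between inhibitor and other libraries, with the lowest of the others in control 2 or levodopa 2.

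Rps6, the substrate of S6 kinase whose phosphorylation is used as a readout of mTOR activity, was at 254, 247 and 240.0 CPM after MPTP, 239, 272 and 409 with the low dose and 272, 318 and 297 with the high dose. Its low-dose mean rests on low-dose 3, and the value against MPTP was 0.31 ± 0.23 (edgeR adjusted p = 0.439). Rps19, the gene most often mutated in Diamond-Blackfan anaemia, ran from 85.5 to 129.7 CPM with the inhibitor and 48.8 to 97.0 without it (0.43 ± 0.25, edgeR adjusted p = 0.308). Rps27a, which is made as a fusion with ubiquitin, was at 213, 284 and 367 CPM with the low dose and 193, 169 and 161 after MPTP (0.72 ± 0.23, edgeR adjusted p = 0.0734). It was at 245, 333 and 255 CPM with the high dose, and no inhibitor library fell to the highest other value of 209.

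Some members are near-copies of another member, and reads could be shared between them depending on how they were counted. The coding sequences of Rpl36a and Rpl36al were 87.7% identical, those of Rps27 and Rps27l 77.3%, Rpl3 and Rpl3l 74.3%, Rpl22 and Rpl22l1 69.3%, and Rpl7 and Rpl7l1 57.7%. The longest identical stretch in any of these pairs was 26 bases, so a longer coding read could be told apart by its letters. The members annotated as pseudogenes, Rps4l, Rpl6l and Rps12l1, were not compared in this way, so this does not extend to them. In all 5 pairs the second named gene was at the lower level per length. Per kilobase of coding length, mean CPM over the 15 libraries was 283 for Rps27 and 34.1 for Rps27l, 200.0 for Rpl22 and 104.0 for Rpl22l1, 211 for Rpl36a and 132 for Rpl36al, 286 for Rpl7 and 52.4 for Rpl7l1, and 412 for Rpl3 and 0.364 for Rpl3l. Rpl3l is known from heart and skeletal muscle.

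Rpl22 and Rpl22l1, a pair known to regulate each other, both had higher means with the inhibitor. Rpl22 was at 70.2, 67.2 and 65.0 CPM after MPTP, 79.2, 97.0 and 105 with the low dose and 83.8, 94.2 and 82.0 with the high dose, and rose with the low dose (0.47 ± 0.11, edgeR adjusted p = 0.0237). Rpl22l1 was at 41.5, 27.5 and 31.0 CPM after MPTP, 34.2, 49.0 and 53.6 with the low dose and 39.8, 63.3 and 49.1 with the high dose, with overlap in both (0.45 ± 0.34, adjusted p = 0.448, and 0.60 ± 0.34, adjusted p = 0.38). In control 2 Rpl22l1 was at 14.1 CPM against 32.0 and 31.0 in the other controls, while Rpl22 was at 68.7 against 64.1 and 76.3, so the low value in the library with high cerebellar markers was that of Rpl22l1.

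Rps27l, a p53 target in textbook accounts, ran from 8.62 to 12.2 CPM with the inhibitor and 5.68 to 8.90 without it, and Rps27 from 56.1 to 118 against 30.4 to 75.1. Neither was called. Rps27l was also higher in all MPTP libraries (7.62, 8.39 and 7.77 CPM) than in all control libraries (7.20, 5.68 and 6.89), at 0.27 ± 0.17 with an edgeR adjusted p of 0.717. Rpl36a gave 0.67 ± 0.23 and Rpl36al 0.37 ± 0.15 with the low dose against MPTP (edgeR adjusted p = 0.0888 and 0.153). Rpl7l1, which takes part in making the large subunit, ran from 39.3 to 46.0 CPM against 32.9 to 40.7, a log2 fold change of 0.30 ± 0.10 with each dose (edgeR adjusted p = 0.0873 and 0.14). Rpl3l never exceeded 0.823 CPM.

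Rps4l, annotated as a transcribed pseudogene, had the largest fold change of MPTP against control among the members. It was at 8.80, 11.8 and 10.8 CPM in controls and 16.4, 13.3 and 15.6 after MPTP, without overlap (0.53 ± 0.29, edgeR adjusted p = 0.717). Its low-dose libraries, at 9.62, 24.0 and 13.5 CPM, ran from near the lowest to above the highest value of the other groups, 8.80 and 19.5 CPM, and the low dose against MPTP gave 0.06 ± 0.29.

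Levels differed widely between members. Per kilobase of coding length, mean CPM of the 82 coding members had a median of 311, with quartiles of 226 and 390.0. Rpl41 was highest at 2360, followed by Rps24 at 862, Rps29 at 694 and Rpl21 at 645. Coding length leaves out untranslated bases, which weigh most in the shortest genes, so these ranks hold for that scale only. Across the 15 libraries, log2 CPM of a member correlated with the mean of the other 84 at a median r of 0.936, given as a description since the libraries share depth and tissue. The coefficient was over 0.9 for 63 members and under 0.8 for 7, lowest for Rpl3l at 0.46, Rps4l at 0.47 and Rpl7l1 at 0.54. Among members with no near-copy, Rps9 and Rpl29 were lowest at 0.74 and 0.75.

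Single libraries shifted the members as a block or reordered them. Against the mean of the others in its group, control 2 was lower for 83 of 85 members with a median of -0.55 (log2), and levodopa 2 was lower for 83 with a median of -0.57. Low-dose 3 had a median of only 0.04, but with 45 members above and 40 below, and an interquartile range of 0.491 over the members, the widest of the 15 libraries. Rps27, Rpl29, Rps28 and Rpl27 were lower there by -0.78 to -0.71, and Rps9 and Rps3a1 were higher by 0.84. Over the members the same range was 0.094 to 0.333 in the other libraries. Over all genes low-dose 3 was not the widest, with a range of 0.535 against 1.108 in control 2. Without low-dose 3, the count of members called with the low dose against MPTP was 5 in place of 12, with 4 of the 5 among those 12. Calls over all genes fell from 8.53% to 2.79%.

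Coding length ran alongside the inhibitor comparisons among all genes. The members are short, with a median coding length of 454.5 bases against 1389 for the 15822 other coding genes tested. Among those others, the median log2 fold change of the low dose against MPTP was 0.21 for coding lengths up to 500 bases, 0.085 for over 500 to 1000, -0.01 for over 1000 to 2000 and -0.12 for longer genes. For the high dose these medians were 0.25, 0.095, -0.005 and -0.145. Members of up to 500 bases had a median of 0.48 with the low dose and 0.57 with the high dose, and those of over 500 to 1000 bases 0.43 and 0.45, so the member medians lay above those of other coding genes of like length in both. Of the 50 members up to 500 bases 8 (16%) rose with the low dose, where 12.0% of other genes that short did, and 2 (4%) rose with the high dose, where 4.6% did. Of the 29 members of over 500 to 1000 bases 4 (13.8%) rose with the low dose, against 6.65% of the others, and 3 (10.3%) with the high dose, against 1.65%. Within the 82 coding members Spearman's rho of fold change with coding length was -0.26 for the low dose and -0.49 for the high dose. The share of reads from other coding genes of up to 500 bases was 6.69 to 7.54% with the inhibitor and 5.49 to 6.34% without it, and that of the pair of mitochondrial ribosomal RNAs 0.937 to 1.48% against 0.244 to 0.880%. The part of transcript length, RNA quality or library preparation in the members' rise was not tested.

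**Figure D5:**
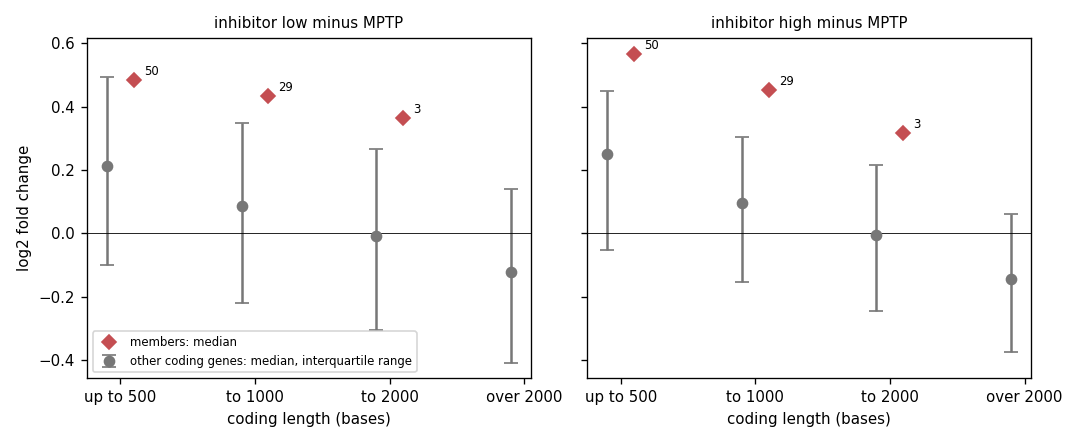
Median log2 fold change by coding length for other coding genes (grey, with the interquartile range as bars) and for members (red, with their number), for the low dose (left) and the high dose (right) against MPTP. Both decline with length, and the members' medians of 0.48 and 0.57 at up to 500 bases lie above the 0.21 and 0.25 of other genes.

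Fixed lists of related genes give the surroundings of the members. Against MPTP, 4.78% of all genes tested rose with the low dose and 1.08% with the high dose. Fau and Rack1 encode ribosomal proteins whose symbols the name rule misses. Fau, which is made as a fusion with a ubiquitin-like protein, was at 111, 102 and 101 CPM after MPTP, 130.0, 163 and 183 with the low dose and 129.7, 154 and 143 with the high dose, and rose with the low dose (0.60 ± 0.15, edgeR adjusted p = 0.0336). Rack1, a scaffold protein on the small subunit, was at 113, 109 and 107 CPM after MPTP, 146, 177 and 132 with the low dose and 147, 160.2 and 145 with the high dose, and also rose with the low dose (0.47 ± 0.11, edgeR adjusted p = 0.0243). With the high dose their adjusted p was 0.148 and 0.0527. Inhibitor and other libraries did not overlap for either gene. Of 16 other messages with a known TOP sequence, 15 were higher than after MPTP with each dose, at medians of 0.38 and 0.31, and 1 rose with the low dose (Pabpc1, the poly(A)-binding protein) and 0 with the high dose.

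Of 30 ribosome biogenesis genes, 4 rose with the low dose (Fbl, Nhp2, Bop1 and Bysl) and 2 with the high dose (Fbl and Nhp2), with list medians of 0.17 and 0.145. The shares of all genes that rose, 4.78% and 1.08%, stand beside these and the following counts. Fbl, the methyltransferase fibrillarin, was at 21.3, 16.9 and 18.0 CPM after MPTP, 27.8, 28.4 and 29.0 with the low dose and 28.8, 28.9 and 30.4 with the high dose. Of 15 regulators of ribosomal protein messages, such as mTOR pathway genes, 1 rose with the low dose (Eif4ebp1, a translation repressor that mTOR inactivates) and 0 with the high dose, at medians of 0.01 and -0.11. Of 8 p53 pathway genes 2 rose with the low dose, the cell-cycle inhibitor Cdkn1a and the apoptosis gene Bax, and 0 with the high dose. Only 4 of the 8 were higher than after MPTP with the low dose and 6 with the high dose, at medians of 0.126 and 0.125.

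Short genes of the respiratory chain and of the mitochondrial ribosome also ran higher. For comparison, 4.78% of all genes rose with the low dose and 1.08% with the high dose. All 26 nuclear genes of complexes II to V in the list were higher with each dose than after MPTP, with medians of 0.34 and 0.42, and 6 rose with the low dose and 4 with the high dose. Of 78 mitochondrial ribosomal protein genes 71 were higher with the low dose and 75 with the high dose, with medians of 0.21 and 0.29, and 7 and 2 rose. Their medians were below those of the cytosolic members, 0.46 and 0.50, a difference that was not tested. None of these lists had a member that fell in either comparison.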

How the data were processed

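Messenger RNA libraries (TruSeq Stranded mRNA, per the labels' protocols) from mouse brain were analysed from the deposited whole-number read counts per gene symbol, 45777 symbols per library. Tools named in the submitters' processing notes are HISAT2 2.1.0, StringTie 2.1.3b, bcl2fastq 2.20.0 and Trimmomatic, with the build GRCm38. No source used here names the annotation, the strand setting or the treatment of reads shared between gene copies, so near-identical copies, overlapping genes and antisense genes are uncertain. Totals were 58149722 to 68257095 reads. Total counts limit precision through counting error only.

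Groups and replicate numbers came from the sample labels. Counts were fitted with edgeR 4.0.16 (R 4.3.3): TMM scaling, low counts removed by filterByExpr, all 15 libraries in 1 quasi-likelihood model, Benjamini-Hochberg adjustment over 21821 genes at 0.05. Standard errors are the log2 fold change over the square root of F. CPM values of single genes are TMM-scaled, and the summed CPM of marker lists are not. The fit was tested on simulated data with known changes. For a simulated low dose against MPTP it recovered 25 of 100 genes changed 2-fold and 66 of 100 changed 4-fold, with 3 false calls. The changed genes were drawn at random from all genes tested, so these counts do not give the recovery for members, which are abundant. A member without a call may still differ. Alternatives were other scalings, filters and samples, a replicate block, regional marker scores, and DESeq2 1.42.0. Members and gene lists were chosen with earlier results of these data known. Named members were chosen by role, or as the 6 with the largest change in each direction among those past the threshold, or, where none passed, the largest and the smallest. Gene lists comprised other ribosomal protein genes, TOP messages, ribosome biogenesis, regulators, p53 pathway, respiratory chain and mitochondrial ribosome genes, and markers of brain regions and cell types. Coding lengths and gene types are from GENCODE M21 (GRCm38), promoter windows from RefSeq (GRCm38.p6). A few members and list genes are counted in all totals but not reported by name here.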

Additional observations from a re-analysis of the deposited data

How the results depend on the processing

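The member medians kept their sign in all 15 alternatives for the 4 comparisons of an inhibitor group with MPTP or control, at 0.40 to 0.54 (low dose) and 0.43 to 0.58 (high dose) against MPTP and 0.38 to 0.66 and 0.41 to 0.73 against control. The number of members called did not hold. For the low dose against MPTP (12), the high dose against MPTP (5), the low dose against control (13) and the high dose against control (2), in that order, upper-quartile scaling gave 7, 3, 6 and 2 calls, no filter 6, 1, 4 and 0, a filter of 5 CPM 15, 7, 20 and 7, fitting only the compared groups 45, 71, 0 and 0, leaving out control 2 and levodopa 2 together 54, 56, 18 and 2, regional scores 0 in all, and DESeq2 31, 26, 41 and 41. Calls over all genes, in either direction, moved too: from 8.53, 1.97, 5.4 and 0.376% to 20.8, 17.5, 0.0541 and 0.0148% with only the compared groups, 23.7, 11.1, 8.33 and 0.739% without those libraries, and 15.6, 7.98, 12.8 and 6.77% with DESeq2. They were 8.51, 1.82, 5.24 and 0.559% with upper-quartile scaling and 3.69, 0.646, 1.72 and 0.106% with no filter. With the 5 CPM filter they were 14.1, 4.31, 10.4 and 1.98%, and with regional scores 0, 0, 0 and 0.0137%. The cortical and hippocampal score separated all inhibitor libraries from all others, so the fit with regional scores cannot tell regional tissue from the inhibitor. Leaving out 1 library at a time gave 0 to 11, 0 to 1, 0 to 9 and 0 members called. Without MPTP 2 or MPTP 3 the low-dose calls became 0 (1.88 and 1.9% of all genes) and without MPTP 1 4 (3.95%). Without low-dose 2 they became 2 (5.78%) and without low-dose 3 5 (2.79%), of which 4 were among the 12. Without any 1 of the high-dose libraries, MPTP 2 or MPTP 3, the high-dose calls against MPTP became 0. Without MPTP 1 they became 1 (0.616% of all genes). Against control, the low-dose calls became 8 without control 1 (6.45% of all genes), 0 without control 2 (1.11%) and 2 without control 3 (1.45%). They became 1 without low-dose 2 (2.71%). Without low-dose 3 there was 1 call (0.348%), of a member outside the 13. The high-dose calls against control became 0 without any 1 library of either group. The cause was not tested. The comparisons of MPTP with control, levodopa with MPTP and the doses had 0 calls throughout.

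With the replicate number as a block the counts were 10, 1, 7 and 0, where 7.9, 1.04, 4.89 and 0.211% of all genes were called. No pairing by number showed: in no comparison did every pair of equal number correlate above 0.1 (21 pairs, -0.297 to 0.239). In none did all 3 libraries correlate best with their own number. In MPTP against control and the high dose against MPTP or control, 2 of 3 did. With 3 libraries a group, these correlations cannot exclude a pairing.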
